A study of Mus musculus with 8 samples.

Results

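Depolarisation with KCl was compared with no stimulation in mouse neuronal cultures whose titles read MGE. The letters usually stand for medial ganglionic eminence, the embryonic source of many GABAergic interneurons of the cortex. The members were the 4 libraries whose titles name MGE, of 8 libraries in all. Each library is a list of peaks of histone H3 acetylated at lysine 27 (H3K27ac), mapped by chromatin immunoprecipitation and sequencing with 50 bp reads. The comparison asks which regions carry called H3K27ac peaks after 2 h of depolarisation that they lack in silenced cells, and the reverse.

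All cultures came from C57/BL6 embryos and all were silenced overnight from day 6 in vitro with 1 µM TTX, a blocker of voltage-gated sodium channels, and 100 µM D-AP5, a blocker of NMDA receptors. On day 7, the KCl group received 55 mM KCl for 2 h and the unstimulated group received nothing further, so the control is a silenced culture and not a spontaneously active one. Each group has 2 libraries called biological replicates. The labels do not say what was kept separate between them, so every p-value below reflects spread among these libraries only, and that spread may be technical. With 2 libraries against 2, the smallest exact two-sided p for a single value is 0.333. The labels give embryonic day 16 as the source of every library and name cortical neurons as the cell type even where the title reads MGE. The titles of the CTX libraries, used here only for comparison, read E14CTX. If E14 is an embryonic day, it conflicts with that source. The titles decided the groups here.

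H3K27ac marks active promoters and enhancers and is placed mainly by the acetyltransferases CBP and p300. When a silenced neuron is depolarised, calcium enters through voltage-gated channels and kinases activate factors bound in advance at immediate early genes, such as CREB and SRF. The products of those genes, among them the AP-1 factors of the FOS and JUN families and the neuron-specific factor NPAS4, then bind promoters and enhancers of late activity-regulated genes that encode secreted and synaptic proteins.

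The deposited MGE lists held 36033 and 49628 peaks with KCl and 38410 and 36234 without, on chromosomes 1 to 19 and X. They covered 21.5 and 32.0 Mb with KCl and 23.0 and 21.1 Mb without. Read depth is unknown. KCl replicate 2 stands apart in called length, so every list was cut to the same 21.1 Mb by keeping its peaks with the highest −log10 p. This left 34863 and 25604 peaks with KCl and 33347 and 36234 without, and the peaks of KCl replicate 2 were the widest (median 723 bp, against 475 to 529 bp in the other lists). Absence from a list means only that no peak passed there, not that acetylation is absent.

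The markers listed for the MGE and for other cells gave a mixed check of the titles. Lhx6 and Nkx2-1, which encode transcription factors that specify MGE interneurons, had called length in each of the 4 MGE libraries and none in the CTX libraries. Lhx6 held 1.97 and 1.22 kb with KCl and 2.10 and 1.51 kb without. Lhx8, a factor of the same lineage, had no called base in any library. Sox6, a factor of maturing MGE interneurons, did not set the cultures apart, with 8.86 to 11.4 kb in MGE and 8.11 to 12.4 kb in CTX, and Dlx2, a factor of all ganglionic eminences, held less in MGE (1.72 to 2.45 kb) than in CTX (3.92 to 8.42 kb).

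Of 15 markers of cortical excitatory neurons, Neurod1, Neurod2, Emx1 and Slc17a7 had no called base in any MGE library, and 6 had enough called length to be tested. Bcl11b, a factor that striatal neurons and some interneurons also express, held 7.61 and 7.61 kb with KCl and 6.27 and 6.82 kb without, and Cux2 held 7.16 and 6.84 against 9.37 and 8.71 kb. Of 10 microglial markers, Cx3cr1, Aif1, P2ry12, Itgam, Spi1 and Trem2 had no called base. Csf1r, the receptor microglia need to survive, held 1.04 and 0.526 kb with KCl and 1.79 and 1.12 kb without, and the other 3 had peaks in unstimulated replicate 1 alone.

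Calls were compared in 500 bp bins, each taken as called when peaks covered at least 50% of it. Of 72457 bins called in at least 1 MGE library, 19377 (26.7%) were called in all 4 and 27009 (37.3%) in 1 library alone. Both KCl and neither unstimulated library called 5241 bins (7.23%), and the reverse held for 4549 (6.28%). The KCl libraries shared 55.8% of the bins called in either and the unstimulated libraries 53.3%, while pairs across treatments shared 43.6% to 47.0%. Libraries of one treatment were therefore more alike than libraries of different treatments in every pairing, by at least 6 percentage points.

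Runs of at least 2 such bins gave 420 gained regions, called in both KCl and neither unstimulated library, and 303 lost regions with the reverse pattern. Gained regions were thus 58.1% of the 723 (Wilson 95% interval 54.5% to 61.6%, which takes the calls as given and covers counting error only). The balance depended on the settings. It was 80.4% in the lists as deposited, 71.6% with equal numbers of peaks, 48.5% with all lists cut to 15 Mb, 42.8% without unstimulated replicate 1 and 36.4% without unstimulated replicate 2. Dropping any library loosens the requirement and raised both counts, to between 704 and 1414 gained and between 524 and 1228 lost regions. No direction is therefore given to the balance of gained and lost regions.

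Positions relative to protein-coding genes are given as shares, with no test. Of the gained regions, 142 (33.8%) lay within 2 kb of either end of a gene span, against 33 (10.9%) of the lost and 2812 (61.3%) of the constant regions, those called in all 4 libraries. The remainder of the gene bodies held 36.7% of gained against 49.2% of lost regions, and 29.5% against 39.9% fell outside genes. A table of gene starts gives none for 4357 of 21631 protein-coding genes (20.1%), 3846 of them outside chromosome 18, so distances to a start are upper limits. Within 1 kb of a listed start lay 115 gained, 11 lost and 2489 constant regions. A constant bin lay within 1 kb of 21.9% of gained and 9.24% of lost regions.

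**Figure D1:**
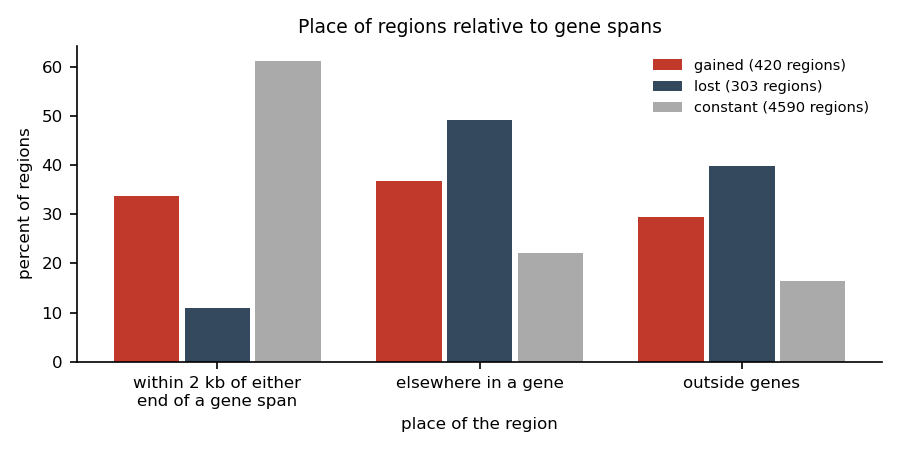
Percent of gained, lost and constant regions (y axis) by place relative to protein-coding gene spans (x axis). Within 2 kb of either end of a span lie 33.8% of gained, 10.9% of lost and 61.3% of constant regions.

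Deposited peaks of the other treatment often touched these regions, and some of those peaks had been kept by the cut. A kept peak can touch a region and still cover too little of a bin for a call. The cut kept 86.8% and 100.0% of the peaks of unstimulated replicates 1 and 2. It kept 96.8% and 51.6% of those of KCl replicates 1 and 2. No deposited peak of either unstimulated library touched 206 (49.0%) of the gained regions, and no deposited peak of either KCl library touched 53 (17.5%) of the lost regions. Since KCl replicate 2 had the longest deposited list, the second count had more peaks to meet. In the 4 CTX lists, which played no part in choosing the regions, gained regions were called at 51.0% and 46.4% in the KCl libraries and at 20.7% and 23.8% in the unstimulated ones. Lost regions were called at 23.1% and 16.5% with KCl and at 46.2% and 34.7% without. Constant regions were called at 84.0% to 86.9% in every CTX library. The CTX libraries did not overlap between treatments in either class, and they lay on the same side as the MGE libraries did.

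Windows of 300 bases around listed starts, from 250 bases upstream to 50 downstream, were read next. A window counted as called when at least 150 of its bases lay in peaks. Of 21045 windows, at 17274 genes, 425 (2.02%) at 403 genes were gained and 108 (0.513%) at 103 genes were lost. The excess of gained windows held under each alternative tried, including the omission of each library, where gained windows numbered 649 to 1358 and lost windows 165 to 450. Among the gained windows were those of the immediate early genes Fos, Fosb, Fosl2, Atf3 and Maff and of the late genes Gpr3, Acan and Pcsk1, and also that of Creb1, which encodes the calcium- and cAMP-responsive factor CREB. At Atf3, 300 of 300 bases were called in both KCl libraries and 0 in both unstimulated libraries, and Gpr3, Fosl2, Acan and Pcsk1 gave the same values. At Fos, 207 and 300 bases were called with KCl and 0 and 0 without. Lost windows included those of Pde2a, a phosphodiesterase, with 131 and 0 bases called with KCl and 300 and 274 without, and Polr2a, the largest subunit of RNA polymerase II, with 0 and 142 against 300 and 300.

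The upstream bases of 5 of these windows, at Fos, Atf3, Gpr3, Fosl2 and Acan, are shown to let the presence or absence of the binding core of CREB be read directly. They were taken from RefSeq (GRCm38.p6) and run 5′ to 3′ on the gene's strand up to the base before the start, and capitals mark TGACG or its reverse complement CGTCA. The Fos window is chr12:85473640-85473889 (plus strand), with cores that begin 129 and 66 bases before the start. That of Atf3 is chr1:191183334-191183583 (minus strand), with a core 7 bases before the start. The Gpr3 window is chr4:133212537-133212786 (minus strand), with cores 196 and 40 bases before the start. Fosl2, at chr5:32136222-32136471, and Acan, at chr7:79052976-79053225 (both plus strand), have no such core in the bases shown.
Fos: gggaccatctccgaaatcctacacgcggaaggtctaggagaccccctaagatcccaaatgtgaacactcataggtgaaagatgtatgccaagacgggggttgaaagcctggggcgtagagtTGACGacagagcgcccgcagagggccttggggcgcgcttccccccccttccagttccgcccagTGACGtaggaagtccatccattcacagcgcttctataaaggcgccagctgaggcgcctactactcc
Atf3: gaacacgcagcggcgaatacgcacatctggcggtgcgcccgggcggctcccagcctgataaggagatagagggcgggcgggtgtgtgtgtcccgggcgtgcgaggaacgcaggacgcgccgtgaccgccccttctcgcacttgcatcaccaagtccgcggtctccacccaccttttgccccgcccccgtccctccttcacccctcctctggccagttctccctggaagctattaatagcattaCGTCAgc
Gpr3: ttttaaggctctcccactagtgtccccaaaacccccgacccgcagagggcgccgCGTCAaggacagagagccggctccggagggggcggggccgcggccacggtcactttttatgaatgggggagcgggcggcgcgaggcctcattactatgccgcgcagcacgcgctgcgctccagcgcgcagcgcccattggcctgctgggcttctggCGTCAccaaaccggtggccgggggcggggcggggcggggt
Fosl2: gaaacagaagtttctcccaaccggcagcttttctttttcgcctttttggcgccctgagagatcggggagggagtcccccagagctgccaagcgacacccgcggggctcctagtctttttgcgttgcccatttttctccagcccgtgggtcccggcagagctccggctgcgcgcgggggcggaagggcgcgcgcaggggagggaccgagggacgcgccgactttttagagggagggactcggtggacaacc
Acan: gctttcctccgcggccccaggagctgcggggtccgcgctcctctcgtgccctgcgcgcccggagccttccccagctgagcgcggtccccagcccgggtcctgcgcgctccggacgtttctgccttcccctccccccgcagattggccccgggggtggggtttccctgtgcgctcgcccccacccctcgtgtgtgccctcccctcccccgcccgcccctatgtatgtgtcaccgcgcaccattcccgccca

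The letters of known motifs were then counted in all windows on both strands. The full cAMP response element TGACGTCA was present in 5.88% of gained windows (25 of 425), in 3.92% of windows called in all 4 libraries, in 0.926% of lost windows (1 of 108) and in 2.26% of all promoter windows. Pcsk1, which encodes a prohormone convertase, was a gained window that holds it. The core TGACG, which is part of the full element, was present in 41.2% of gained, 37.6% of constant, 15.7% of lost and 23.8% of all windows. The core TCGTG bound by NPAS4 was present in 27.1%, 23.9%, 21.3% and 17.6%, and the EGR motif GCGTGGGCG in 2.12%, 1.56%, 0.926% and 0.836%, in the same order. The AP-1 motif TGANTCA was present in 3.76% of gained, 3.65% of constant, 6.48% of lost and 7.04% of all windows. The CArG box, the site of SRF, was present in 5 of 425 gained windows and 1.54% of all windows, and the MEF2 motif in 0.706% and 2.61%. The classes were not matched on base composition, and a match describes only the letters in these windows.

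Each region was assigned to its nearest protein-coding gene span, up to 100 kb away. Of 13160 genes with a callable bin, 350 (2.66%) had a gained region and 264 (2.01%) a lost one, and 14 had both. At least 2 gained regions fell to 18 genes and at least 2 lost regions to 4. Called length per gene, the bases in peaks summed over the bins assigned to it, was also compared by limma on log2(kb + 1). None of 10310 genes passed an adjusted p of 0.05 in either direction (0.0% more and 0.0% less), and the lowest adjusted p was 0.0694. At an unadjusted p of 0.05, 1078 genes (10.5%) had more called length with KCl and 834 (8.09%) less. Both KCl libraries lay above both unstimulated libraries at 3262 genes (31.6%) and below at 1983 (19.2%). The values per gene below are therefore descriptions, read against those shares.

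Immediate early genes, which neurons switch on without new protein synthesis, had a gained region at 9 of 30 callable members (30.0%, against 2.66% of all genes). None had a lost region, against 2.01% of all genes, so that absence says little. Called length summed over the list was 57.9 and 63.8 kb with KCl and 29.8 and 31.4 kb without. Of the 26 members tested for length, 20 had both KCl libraries above both unstimulated ones, and the reverse held for Ier5 alone, a growth response gene (1.94 and 2.46 against 2.53 and 2.93 kb). Over all genes these shares were 31.6% and 19.2%. The list's median log2 difference in length was 0.50, against 0.05 over all genes. Omitting a library can only add genes: it gave 9 to 11 members, while the number of all genes with a gained region went from 350 to between 578 and 1142, so it does not show how stable the excess is. It was 10 in the lists as deposited, 3 when peaks were ranked by fold enrichment and 0 when a bin had to be called over its full width.

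The AP-1 and related bZIP genes led the list, with 5 of 10 callable members gained. Fos, which encodes the core AP-1 subunit, held 6.13 and 8.02 kb of peaks with KCl and 3.30 and 2.38 kb without (log2 difference 1.07 ± 0.20 SE, limma adjusted p = 0.105). The groups did not overlap at Fos, and its gained region spanned its start. Fosb, an AP-1 subunit whose spliced form accumulates with repeated activity, held 3.49 and 3.69 kb with KCl and 0 and 0.720 kb without (1.81 ± 0.27, limma adjusted p = 0.0810). Its region of 1500 bp at the start had peak folds of 4.36 and 4.57 with KCl and no peak in either unstimulated library, deposited peaks included. Atf3, a stress- and activity-induced repressor of the same family, held 2.03 and 2.87 kb against 0.581 and 0.953 kb. Maff, a small MAF protein, held 0.724 and 1.41 kb with KCl and none without, and Fosl2 held 1.42 and 1.81 against 0.466 and 0.318 kb. Junb and Jun did not separate the groups. Junb had 1.51 kb in KCl replicate 1 and 0 in replicate 2, against 0.243 and 0 kb, and Jun had 0.716 and 2.38 against 0.948 and 0.802 kb.

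Among the other immediate early transcription factors, Npas4, Egr1 and Nr4a2 had gained regions. Npas4, which directs activity-dependent inhibitory synapse programmes, held 3.78 and 4.03 kb with KCl and 1.71 and 1.99 kb without. Its gained region lay 2030 bases before the listed start, with folds of 2.00 and 1.84 and no unstimulated peak. Nr4a2, an orphan nuclear receptor, had 1.62 and 2.31 kb with KCl and none in either unstimulated library (1.56 ± 0.16, limma adjusted p = 0.0771). Its relatives Nr4a1 (2.92 and 2.53 against 0.646 and 0.593 kb) and Nr4a3 (3.12 and 3.34 against 1.32 and 0.933 kb) also separated the groups, without a run of 2 bins. Egr1, a zinc finger factor, held 1.05 and 1.72 against 0 and 0.283 kb. Arc, which encodes a postsynaptic protein that controls AMPA receptor traffic, held 1.17 and 1.44 against 0 and 0.380 kb, again without a gained region. Sik1, a CREB-induced kinase, was the 1 signalling gene with a gained region, 697 bases outside its span, yet its total of 5.01 and 5.26 kb was close to the 4.38 and 4.43 kb without KCl. Klf2 had no called base in any MGE library.

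**Figure D2:**
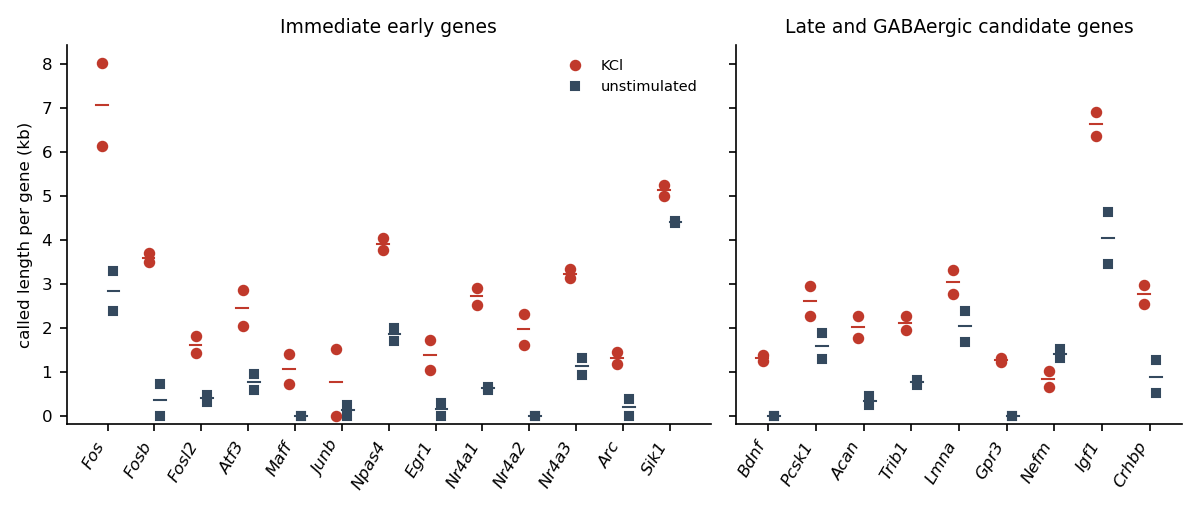
Called length per gene in kb (y axis) in each MGE library for immediate early genes and for late and GABAergic candidate genes (x axis); circles are KCl and squares unstimulated libraries, and short lines are group means of n = 2. The late and candidate genes shown are only those with a gained or lost region, so their separation follows in large part from that choice. KCl libraries lie above both unstimulated ones at each gene shown except Junb, where they overlap, and Nefm, where they lie below. List members not shown include Ier5, Plk2, Rgs2 and Npy, which lie below, and Jun and Sst, which overlap.

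Late activity-regulated genes had a gained region at 6 of 17 callable members (35.3%) and a lost one, 92997 bases from the gene span, at Nefm, which encodes a neurofilament protein. Over all genes, 2.66% had a gained and 2.01% a lost region. The list held 31.3 and 30.7 kb with KCl and 18.4 and 18.7 kb without, and the median log2 difference was 0.61. In length, 11 of its 14 tested members had both KCl libraries on top and the other 3 (Plk2, Rgs2 and Nefm) both below, against 31.6% and 19.2% of all genes. Without KCl replicate 1, which loosens the requirement, gained regions lay at 11 members in place of 6. The number of all genes with a gained region then went from 350 to 1142. Bdnf, the gene of a neurotrophin, had 1.24 and 1.39 kb with KCl and none without (1.21 ± 0.14, limma adjusted p = 0.0771). Its gained region began 469 bases from a listed start inside the gene, with folds of 4.03 and 3.83 and no unstimulated peak even in the deposited lists. The same region was called in all 4 CTX libraries. Gpr3, a receptor that raises cAMP without ligand, had 1.21 and 1.31 kb with KCl and none without, at its start. Acan, the core protein of perineuronal nets, held 2.26 and 1.77 against 0.241 and 0.449 kb, and Pcsk1 held 2.95 and 2.26 against 1.28 and 1.87 kb. Scg2, a granule protein, and Nptx1, a synaptic pentraxin, separated the groups without a gained region. Scg2 had 4.22 and 4.87 against 2.12 and 2.60 kb, and Nptx1 had 1.44 and 0.987 against 0 and 0 kb. Feedback inhibitors of the MAPK pathway had no gained or lost region at 8 callable members, against 2.66% and 2.01% of all genes. The list is too short to read this absence. Dusp6, an ERK phosphatase, had the widest gap among them, with 1.13 and 2.52 kb against 0 and 0.266 kb.

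Genes listed as candidates for regulation by activity in GABAergic cells had gained regions at 2 of 10 callable members, Igf1 and Crhbp. They had no lost region. The shares over all genes were 2.66% and 2.01%. The list held 25.5 and 23.9 kb with KCl and 14.6 and 18.3 kb without, and 4.43 to 6.21 kb in the CTX libraries. Igf1, which encodes the growth factor IGF1, held 6.36 and 6.92 kb with KCl and 3.45 and 4.64 kb without (0.61 ± 0.17, limma adjusted p = 0.169). A gained region of 2000 bp ended 111 bases before its listed start, with folds of 2.49 and 2.15, and a further one of 1000 bp lay 62111 bases upstream, with folds of 3.19 and 3.45. No unstimulated MGE library had a peak at either, and neither was called in a CTX library. Crhbp, which encodes the binding protein of corticotropin-releasing hormone, held 2.55 and 2.98 kb with KCl and 0.514 and 1.26 kb without, and 0 kb in every CTX library. Its gained region lay 4376 bases outside the gene span. Pthlh, a parathyroid hormone relative, and Tac1, the substance P precursor, also separated the groups, with 4.03 and 3.54 against 2.28 and 1.31 kb and 2.91 and 2.62 against 1.72 and 1.89 kb. Sst, the somatostatin gene, did not, with 2.24 and 1.16 against 0.711 and 1.24 kb, and Npy was lower in both KCl libraries (1.499 and 0.548 against 1.54 and 2.19 kb). Crh had no called base.

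**Figure D3:**
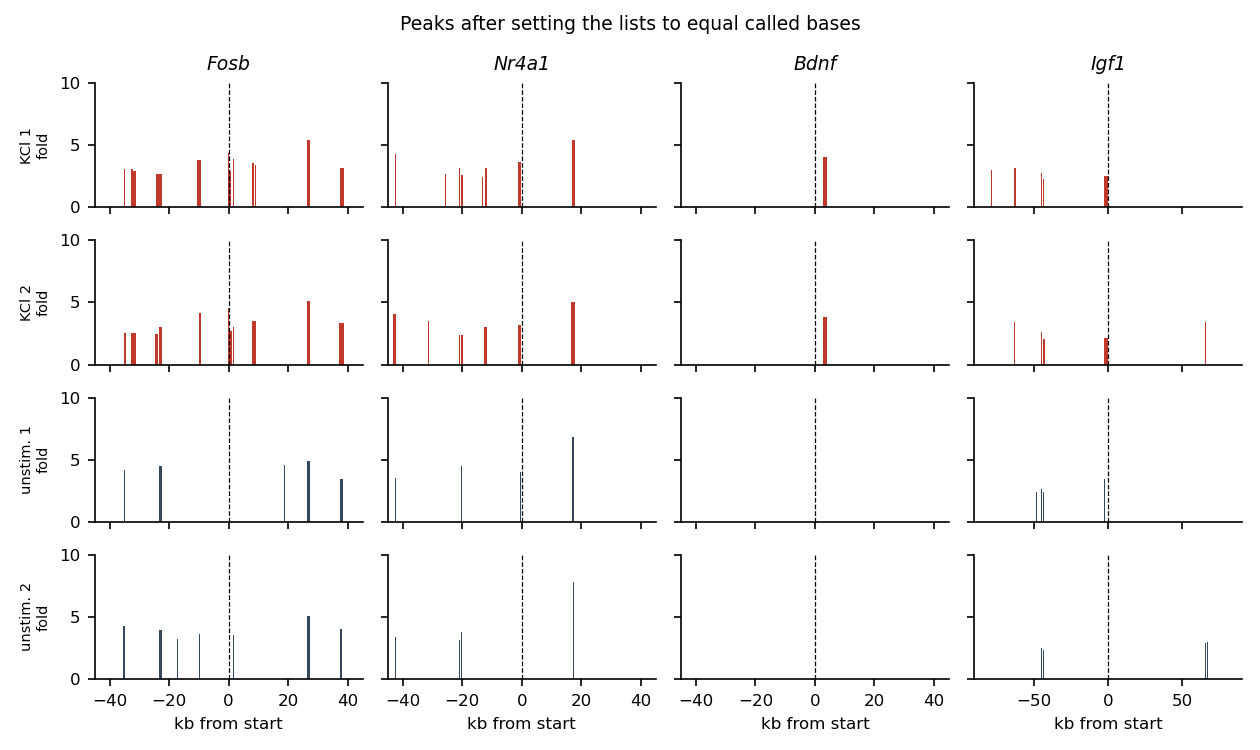
Peaks of each MGE library (rows) around the most upstream listed start of Fosb, Nr4a1, Bdnf and Igf1 (columns), as distance from that start in kb (x axis), with bar height the peak's fold enrichment (y axis, linear). Peaks at the Fosb start, in Bdnf and in the gained regions of Igf1 appear in both KCl rows and in neither unstimulated row.

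Genes that carry calcium and cAMP signals gave a mixed picture. Signalling to the nucleus had gained regions at 4 of 23 callable genes (Nfatc2, Camk1g, Camk2a and Mef2c) and lost regions at 2 (Camk1d and Mef2d). The shares over all genes were 2.66% and 2.01%. The list's summed length was 64.3 and 65.3 kb with KCl and 60.5 and 55.7 kb without, with no overlap. Of 22 members tested for length, 10 lay higher and 2 lower in both KCl libraries, against 31.6% and 19.2% of all genes. Camk2d, a calcium/calmodulin-dependent kinase, held 3.83 and 3.93 against 1.77 and 1.99 kb. The phosphodiesterases, which degrade cyclic nucleotides, had gained regions at 3 of 12 genes (Pde4b, Pde4d and Pde10a) and lost ones at 2 (Pde1c and Pde7b). Of the 11 tested for length, 4 lay higher and 3 lower in both KCl libraries, close to the shares over all genes. Pde4d, a cAMP-specific enzyme with a very long gene, had the most gained bins of any gene, 8 in 4 regions, among its 100 callable bins. It held 33.4 and 31.6 kb with KCl and 20.6 and 22.1 kb without (0.58 ± 0.08, limma adjusted p = 0.0771). Pde2a went the other way, with 1.87 and 1.07 against 3.71 and 2.93 kb.

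Genes of MGE and GABAergic identity had a gained region at 1 of 21 members (4.76%) and lost ones at 2 (9.52%), and Erbb4, a neuregulin receptor, had both. The shares over all genes were 2.66% and 2.01%, and 1 member makes up 4.76% of this list. Of the 21 tested for length, 4 lay higher and 5 lower in both KCl libraries, against 31.6% and 19.2% of all genes. The list's sum was 89.2 and 76.5 kb with KCl and 94.5 and 86.1 kb without, and the groups overlapped. Gad2, which makes GABA, held 4.83 and 5.55 against 4.90 and 5.17 kb. Cxcr4, a chemokine receptor that guides migrating interneurons, held 2.39 and 2.66 against 4.75 and 5.11 kb. Of 26 synaptic and channel genes, 4 (15.4%) had a gained region, among them the glutamate receptor genes Grin2a and Gria1 and the sodium channel gene Scn8a, and 1 (3.85%), the calcium channel gene Cacna1c, a lost one. In length, 13 of the 26 lay higher and 3 lower in both KCl libraries, against the same 31.6% and 19.2% of all genes. Housekeeping genes had neither kind at 15 callable members, against 2.66% and 2.01% of all genes, and this list too is short. Their summed length overlapped between the groups.

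Lists of other cell types are short, so 1 gene is a large share of them. A gained region lay at 1 of 9 callable cortical excitatory markers (Rorb, 11.1%), 1 of 9 LGE and striatal (Foxp1, 11.1%), 1 of 8 astrocyte (Aqp4, 12.5%) and 1 of 9 progenitor markers (Vim, 11.1%), each above the 2.66% of all genes. A lost region lay at 1 of the 9 LGE and striatal markers (Rarb), against 2.01% of all genes. In length, 3 of 5 tested astrocyte and 2 of 3 tested progenitor markers lay higher in both KCl libraries and none lower. Over all genes, 31.6% lay higher and 19.2% lower, and these lists are too short to tell from those shares. Lists for CGE interneurons, microglia, oligodendrocytes and their precursors, vessel cells and genes silent in neurons had none. The oligodendrocyte list held 4.69 and 5.02 kb with KCl and 6.62 and 7.47 kb without, lower in both KCl libraries at 3 of 4 tested members, and Olig1, Cspg4, Mag and Nkx2-2 had no called base. The CGE list held 4.80 and 2.97 against 5.92 and 8.19 kb, the astrocyte list 7.06 and 8.38 against 4.07 and 7.33 kb, and the microglial list 1.04 and 0.526 against 3.21 and 1.12 kb. The part of these cells in the results was not tested, and fewer cells of a type cannot be told apart from less acetylation per cell.

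**Figure D4:**
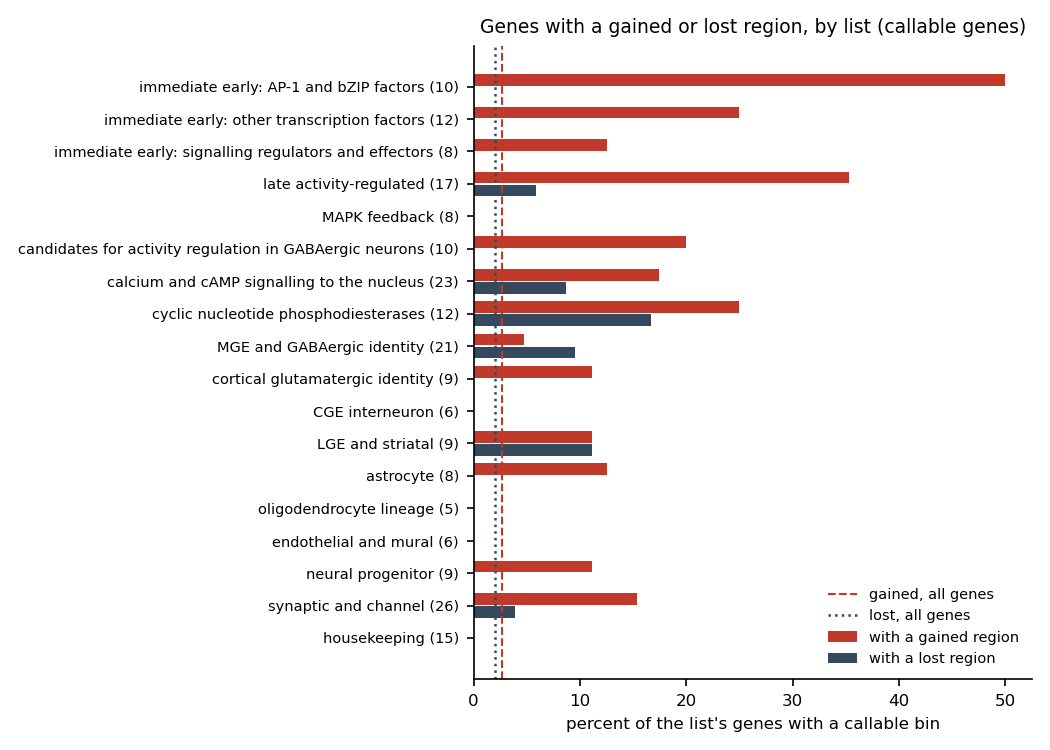
Percent of each list's callable genes (number in brackets) with a gained or a lost region (x axis), with vertical lines at the shares over all callable genes (2.66% gained, 2.01% lost). AP-1 and bZIP genes (50.0%) and late activity-regulated genes (35.3%) reach the highest gained shares; 1 gene of a list of 8 is 12.5%.

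Beyond the lists, the genes with the most gained bins after Pde4d were Samd4, an RNA-binding repressor of translation (7 bins), and Babam2 and Igf1 (6 each). Babam2, a subunit of the BRCA1-A deubiquitinase complex, held 12.9 and 11.1 against 5.11 and 4.22 kb. Its span ends at base 32084950 of chromosome 5, and that of the immediate early gene Fosl2 begins at 32136472. Which gene the regions assigned to Babam2 serve was not tested. Gpm6a, a neuronal membrane glycoprotein, had 5 gained bins and held 16.3 and 17.2 against 10.5 and 11.3 kb. A further 16 genes tied at 4 bins, of which Arl4d, Cacng5, Cpxm2, Dip2c and Frem3 come first by symbol. Cacng5, which encodes an auxiliary subunit of AMPA receptors, held 4.21 and 3.31 against 1.06 and 1.14 kb. By limma's moderated t the largest increases were at Hs6st2, a heparan sulfate sulfotransferase (2.31 and 2.15 against 0 and 0 kb), LOC105244150, Nr4a2, Prg4 and Gpsm2. With genes counted as body and 20 kb to each side, Nr4a2 and LOC105244150 passed an adjusted p of 0.05 in limma. Their spans overlap, so these 2 calls are 1 locus.

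Most lost bins lay at Msra and Prkce (6 each), Pdgfa (5) and Cradd and Mef2d (4 each), while 25 genes tied at 3, of which Ablim1, Adra2b and Ank1 come first by symbol. Kept KCl peaks touched the lost region near the start of Cradd, with folds of 5.44 and 6.08 against 4.53 and 3.46 without KCl. They also touched that in Mef2d, with 3.02 and 3.13 against 2.48 and 2.85. These regions lost called bins while peaks remained. No kept KCl peak touched the lost regions of Msra. Before the cut, KCl replicate 2 had a peak at each of them, with folds of 2.51, 2.50 and 2.14. The unstimulated folds there were 2.82 and 2.54, 2.61 and 2.75, and 2.17 and 2.09. These losses therefore depend on the cut. Msra, a methionine sulfoxide reductase, held 17.3 and 16.8 kb with KCl and 27.7 and 26.8 kb without (log2 difference −0.65 ± 0.08, limma adjusted p = 0.0771). It was also lower with KCl in CTX (23.6 and 20.6 against 32.2 and 35.5 kb). Cradd, a death-domain adaptor, held 2.10 and 1.958 against 6.49 and 6.13 kb, and in CTX 1.60 and 1.83 against 5.78 and 3.08 kb. Prkce, a protein kinase C, held 6.53 and 3.92 against 11.1 and 8.16 kb. The largest decreases by moderated t were at Tgm6, Matn1, Lpar5, Col6a6 and Rnd1, which had no called base in either KCl library and 1.84 to 3.28 kb in each unstimulated one (limma adjusted p = 0.0694).

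Fold enrichment, the authors' ratio of signal over background for each peak, was compared at the 16247 regions with a peak in all 4 lists, of 51598 merged regions. By limma on log2 fold, centred on each library's median, it rose with KCl at 9 regions (0.0554%) and fell at 29 (0.178%) at an adjusted p under 0.05. Without centring the counts were 34 and 35, and with quantile normalization 0 and 1. Omitting KCl replicate 2 gave 0 and 2, and omitting KCl replicate 1 gave 8 and 20. Omission of unstimulated replicate 1 gave 0 and 6, and that of unstimulated replicate 2 gave 41 and 90. The calls thus rest on few libraries, and the named regions should be read with their 4 values.

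The 9 regions that rose lay at Mroh1, Ttll4, Zfp169, Aars, Impdh2, Rnf113a2, Hsbp1, Cwf19l2 and Trp53rka. Of these, 7 lay within 1 kb of a listed start, against 10 of the 29 that fell (34.5%). The share was 46.0% over all shared regions with a distance to a listed start. This difference was not tested, and no start is listed for some genes, Mroh1 among them. Mroh1, a HEAT-repeat gene, had folds of 6.79 and 8.04 with KCl and 3.44 and 3.78 without (0.98 ± 0.15, limma adjusted p = 0.0306). Ttll4, a tubulin polyglutamylase, had 7.52 and 6.26 against 3.38 and 3.76. Aars, the alanyl-tRNA synthetase gene, had 6.01 and 6.62 against 3.60 and 3.21, in a region that also spans the start of Ddx19b. Impdh2, which encodes the rate-limiting enzyme of guanine nucleotide synthesis, had 6.64 and 5.72 against 3.34 and 3.44. None of the 9 lay within 50 kb of an immediate early or late activity-regulated gene. Only 0.634% of the shared regions did, so this absence says little.

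The regions that fell included several beside activity genes. Within 50 kb of an immediate early or late gene lay 7 of the 29 (24.1%), against 0.634% of the shared regions. A region 2018 bases before the start of Nr4a3 had folds of 2.66 and 2.82 with KCl and 5.54 and 4.06 without (−0.85 ± 0.13, limma adjusted p = 0.0306). The region 19739 bases before the listed start of Nr4a1 had 2.62 and 2.38 against 4.46 and 3.80. Regions 6.1 kb from Junb, assigned to Hook2, and at Per1, a clock gene, had 2.66 and 2.07 against 4.72 and 3.48 and 2.90 and 2.21 against 4.23 and 3.95. At Trib1, a pseudokinase gene, the folds were 2.68 and 2.43 against 3.93 and 3.43, and a pair of regions by Ercc1 lay 22.4 and 34.3 kb from Fosb. The largest fall was in 1 of 3 regions nearest Ttc17, at 2.12 and 2.02 against 4.15 and 3.55 (−0.95 ± 0.10, limma adjusted p = 0.00339).

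Lower fold at these places went with more called bases around them, not fewer. In the 10 kb to each side, 18 of the 29 regions that fell had more called length in both KCl libraries than in both unstimulated ones, against 14.4% of the shared regions, and none had less, against 10.4%. The region itself was longer in both KCl libraries at 13 of 29, against 32.8%. It was also longer at 6 of the 9 regions that rose, so a longer region was not particular to those that fell. At Nr4a1 the flanks held 1.91 and 1.04 kb with KCl and 0 and 0.34 kb without, and at Nr4a3 1.46 and 1.52 against 0.28 and 0.30 kb. At Trib1 the region itself held 1952 and 2273 called bp with KCl and 805 and 707 bp without. With shared regions ordered by the difference in flanking length, 21 of the 29 lay among the top 3250, whose median log2 fold difference was −0.077, against 0.034 among the bottom 3250. Across the 16247 regions, which share libraries and are not independent, the correlation was −0.23. How the caller set its local background is not given in the sources used here, and its part in these values was not tested. When fold was summed over called bases, a measure added after the data were seen, 0 regions passed in limma in either direction (1175 higher and 1576 lower at an unadjusted p of 0.05), and 8 of the 38 changed sign, Trib1 among them.

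**Figure D5:**
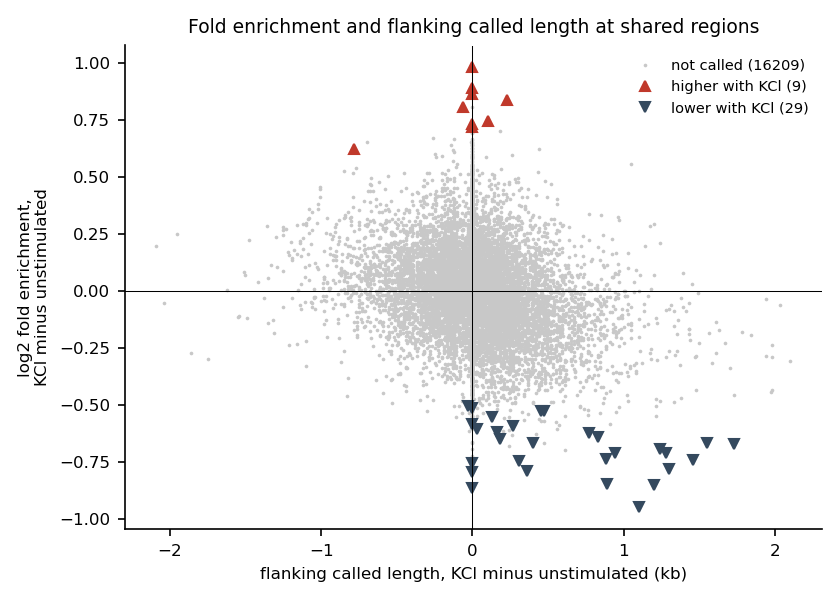
Difference in log2 fold enrichment (y axis) against the difference in called length within 10 kb to each side in kb (x axis), KCl minus unstimulated means, for the 16247 shared regions (points). Triangles mark the 9 regions that rose and the 29 that fell, and 21 of the 29 lie among the top 3250 by flanking length.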

How the data were processed

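H3K27ac peak lists of 4 MGE libraries, 2 per treatment, were analysed. The submitters' processing notes name cutadapt 1.18, Bowtie2 2.3.3, MACS3 3.0.0a7, deepTools 3.4.3 and build mm10, without their order or settings; for the input control and duplicates, the handling is not given in the sources used here. Each deposited broad peak carries a fold enrichment, which is a ratio over background, and its −log10 p and −log10 q. The deposited display score was not used. Peaks were called per library by the authors, as far as the separate lists show, and 17 MGE peaks on other chromosomes were left out.

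Each list was cut to 21.1 Mb, that of the smallest MGE list, by −log10 p. Bins of 500 bp, runs of at least 2 bins, and assignment to the nearest span within 100 kb gave regions and genes. Called length, as log2(kb + 1) at genes with a mean of at least 0.5 kb, and log2 fold enrichment at regions shared by all 4 lists, centred on library medians, were tested in limma 3.58.1 (R 4.3.3) over the 4 MGE libraries with Benjamini-Hochberg adjustment at 0.05. Python 3.11.15, numpy 2.4.6, pandas 2.3.3 and matplotlib 3.10.9 did the rest, and both fits were tested on simulated data. Gene spans and promoter sequences came from RefSeq tables of GRCm38.p6.

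Named genes were a set of 11 activity genes, the 10 with most gained and the 8 with most lost bins (ties by symbol), activity-list members with a region, the 6 regions with the largest rise and 6 with the largest fall in fold among the 100 lowest p, and the 5 genes at each end of moderated t. Other genes are list members or regions past the threshold. Members and lists were chosen with earlier results of these data known. Alternatives covered list length, ranking, bin overlap, run length, gene assignment, scaling, the replicate number and the omission of each library. Promoter windows, their alternatives, the 15 Mb lists and the summed fold were chosen after seeing the data. Some results at single genes are not reported here.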

Additional observations from a re-analysis of the deposited data

How the results depend on the processing

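Against 420 gained and 303 lost regions, ranking by fold enrichment gave 267 gained regions and a gained share of 52.9%. Requiring −log10 q of at least 5 gave 820 and 181 regions (81.9%), any overlap 1853 and 2365 (43.9%), full overlap 162 and 60 (73.0%), and single bins 4782 and 4218 (53.1%). The lists as deposited gave 120 lost regions (80.4%), equal numbers of peaks 190 (71.6%), and lists of 15 Mb 494 (48.5%). Leaving out each library gave 704 to 1414 gained and 524 to 1228 lost regions, with gained shares of 36.4% (without unstimulated replicate 1, 42.8%) to 66.0%. Genes with a gained region (350) numbered 231 ranked by fold, 715 at the stricter q, 1319 at any overlap, 153 at full overlap, 3217 with single bins and 578 to 1142 without each library. Genes with a lost region (264) numbered 110 as deposited, 169 with equal numbers of peaks, 152 at the stricter q, 1591 at any overlap, 56 at full overlap, 2522 with single bins, 404 at 15 Mb and 439 to 928 without each library. Immediate early genes with a gained region (9) numbered 3 ranked by fold, 0 at full overlap and 18 with single bins. Promoter windows without each library numbered 649 to 1358 gained and 165 to 450 lost. Regions with higher fold (9) and lower fold (29) numbered 34 and 35 without centring, 0 and 1 with quantile normalization, 20 and 38 with the highest overlapping fold, 0 and 0 with fold summed over called bases, 6 and 12 in the lists as deposited, and 0 to 41 and 2 to 90 without each library. With the replicate number as a block they numbered 37 and 70. Deviations from the group mean correlated between same-numbered libraries at 0.031 in fold and 0.1 in length. With 2 pairs, this cannot show whether same-numbered libraries share a culture or batch, and the labels do not say. Summed fold turned the sign at Auh (0.47), Ice1 (0.41), Trib1 (0.70), Mrpl33 (0.11), a region by Ercc1 (0.33), Tti2 (0.03), Ces5a (0.30) and Hsbp1 (−0.24). Called length counted by body and 20 kb to each side gave 2 genes with more. Its sign turned at Pdgfa (0.19) and Mef2d (0.01) in the lists as deposited, at Ndufs5 without KCl replicate 2 (−0.08) or unstimulated replicate 2 (−0.23; up to 0.40 without each library), and at Impdh2 with a pseudocount of 0.25 kb (0.01), with body and flanks (0.01) or without KCl replicate 1 (0.04; down to −0.18 without each library). Of 492 alternative values of length at named genes, 7 changed sign; no gene passed in the reported fit, so keeping its side of the threshold shows no stability. Of 380 values at called fold regions, 181 kept sign and call. The causes were not tested. Read depth is unknown, so peaks near the calling threshold limit every absence.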

Other observations

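A list of 28 genes for cytosolic aminoacyl-tRNA synthetases, which load amino acids onto tRNAs, and for serine and one-carbon synthesis was drawn up after Aars, Sars, Shmt2 and Psat1 were seen among the MGE regions, so its MGE counts are no independent evidence. Of 24 members tested for called length, 13 had both KCl libraries above both unstimulated ones and 2 the reverse, against 31.6% and 19.2% of all genes. The list held 36.3 and 39.8 kb with KCl and 30.3 and 32.7 kb without. Shmt2, a mitochondrial serine hydroxymethyltransferase, held 1.16 and 1.19 kb with KCl and none without, and Mthfd2, a mitochondrial folate enzyme, 1.56 and 1.60 against 0.451 and 0.291 kb. Vars, the valyl-tRNA synthetase gene, held 1.61 and 1.57 against 0.685 and 0.771 kb. Dars, the aspartyl-tRNA synthetase gene, was lower in both KCl libraries, at 1.28 and 3.51 against 3.81 and 4.55 kb. In the CTX libraries, which were not used to choose the list, it held 40.5 and 38.2 kb with KCl and 29.0 and 31.7 kb without, and 16 of the 24 members had both KCl libraries on top and 1 the reverse, against 33.7% and 14.9% of all genes. The housekeeping list, of genes active in most cells, had 7 of 12 and 0 in CTX, and 4 and 5 of 12 in MGE.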
